A study of Mus musculus with 8 samples.

Results

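Skeletal muscle signals to other organs, and to its own fibres, nerves and vessels, through secreted proteins known as myokines. The mRNAs of 10 of them were followed here: Fgf21, Gdf15, Fndc5, Metrnl, Angptl4, Apln, Ostn, Il15, Vegfb and Fgfbp1. They were taken by gene symbol from the 14012 genes of the deposited table, and all 10 were in it. The RNA came from the QF (quadriceps femoris), a large thigh muscle, of 4 mice labelled as skeletal muscle-specific Grpel1 knockouts (Grpel1 smk -/- in the labels, Grpel1skm-/- in the study's text) and of 4 mice labelled as Grpel1 flox/flox controls, with 1 polyA RNA library per mouse. GRPEL1 is a nucleotide exchange factor that serves the mitochondrial HSP70 in protein import into the matrix. In the knockout line a tamoxifen-inducible Cre under the human skeletal muscle actin promoter deletes the floxed gene in muscle fibres of young mice, so the other cells of the muscle keep it, and the floxed allele is shared by both groups. The labels give no treatment. The study's text calls the floxed littermates untreated where it describes weight loss, but whether the control mice of these libraries carried Cre or received tamoxifen is not stated for them, so an effect of either cannot be told apart from that of the deletion. The study describes its mice as young males, and the age at which each of these muscles was taken is not stated.

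The libraries held 16017565 to 20361144 counts. Levels are given as CPM, counts scaled to a common library size after edgeR's TMM scaling, which corrects for the make-up of each library, and differences as log2 fold changes of knockout over control. The test was the quasi-likelihood test of edgeR, whose p-values were adjusted by Benjamini-Hochberg over all 14012 genes, and an adjusted p under 0.01 was called. Errors beside means are SDs over 4 libraries. TMM factors ran from 0.747 to 0.844 in control libraries and from 1.19 to 1.33 in knockout libraries, so the choice of scaling bears on small differences. Over all genes the median log2 fold change was 0.065 with TMM and 0.73 with library totals alone, and the genes called higher and lower numbered 3303 and 2962 with TMM but 8498 and 873 with library totals. The whole-gene level of Grpel1 did not separate the groups (68.4 ± 3.04 CPM in controls and 65.3 ± 6.11 in knockouts, log2 fold change -0.066, SE 0.078, adjusted p = 0.487 with edgeR), so every direction below rests on the labels.

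Of the 10 myokine transcripts, 3 rose (Fgf21, Gdf15 and Ostn), 4 fell (Fndc5, Vegfb, Apln and Fgfbp1) and 3 did not pass the test (Metrnl, Angptl4 and Il15). In the whole table, 44.7% of the genes passed it, 23.6% upwards and 21.1% downwards. The groups did not overlap in CPM for the same 7 members, against 53.4% of all genes. The median log2 fold change of the 10 members was -0.30. Directions were mixed within the group, and the sizes ran from at least 499-fold for Fgf21 to a log2 fold change of 0.14 for Metrnl. With library totals as the scaling, 4 were called higher and 2 lower, because Il15 then passed upwards, Apln lost its call and Vegfb turned to 0.052.

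**Figure D1:**
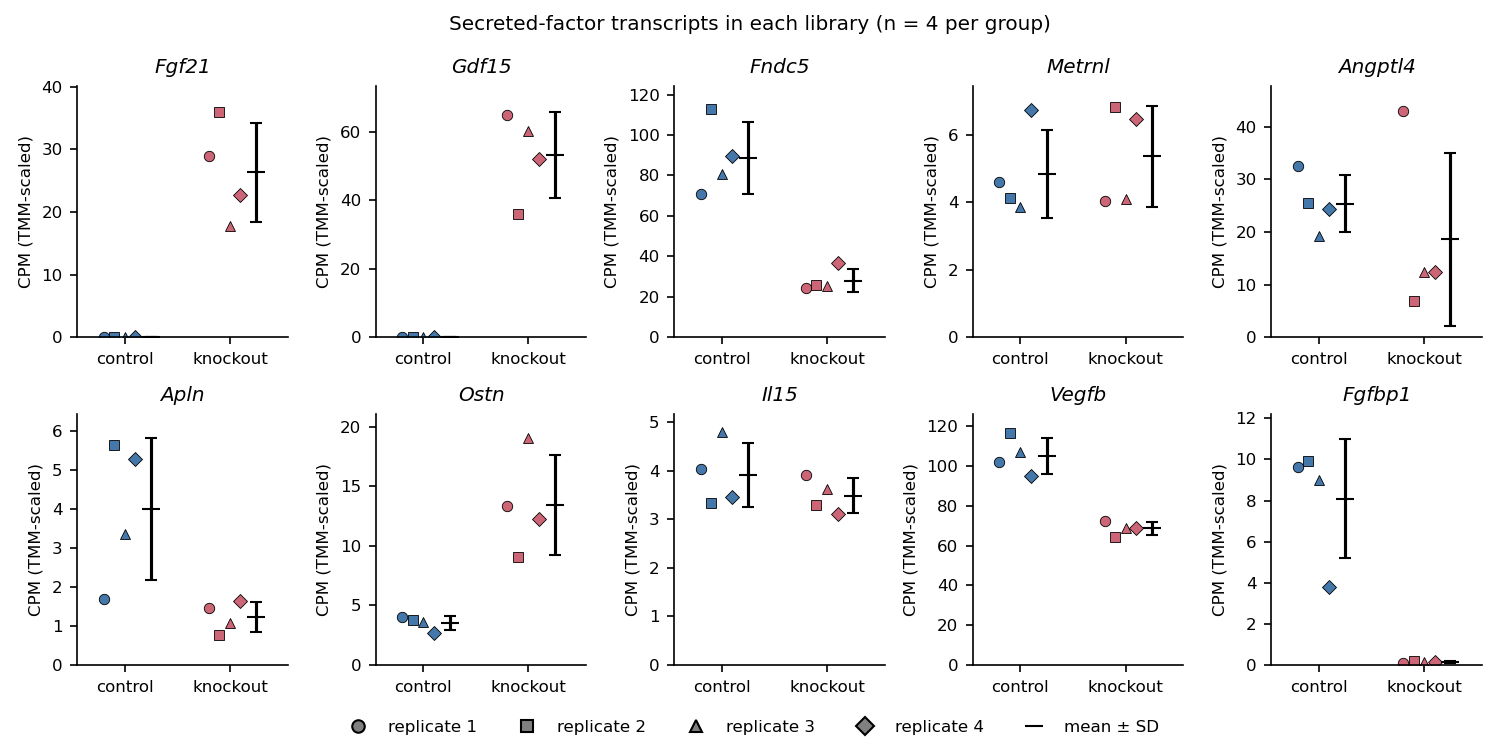
CPM of each of the 10 myokine transcripts in every library (y axis, TMM-scaled, from 0), with control libraries in blue, knockout libraries in red, a symbol per replicate and a bar for the mean ± SD of 4. Fgf21 and Gdf15 lie at or near 0 in all controls, the groups stand apart for 7 of the 10 genes with TMM scaling, and a single knockout library lies far above the other 3 for Angptl4.

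FGF21 and GDF15 are hormones that cells with damaged mitochondria or stressed endoplasmic reticulum are known to make through the integrated stress response, in which ATF4 and its relatives bind C/EBP-ATF elements in the promoters of their target genes. FGF21 acts on liver, fat and brain through FGFR1 with its co-receptor beta-Klotho, and GDF15 acts on the hindbrain through GFRAL and RET. Reference sequence (RefSeq, GRCm38.p6) was at hand around the start site of 7 of the 10 genes, in 8 windows that reach from 250 bases before to 50 bases after the start. None was at hand for Angptl4, Ostn and Il15. The 250 bases before the start are shown, 5′ to 3′ on the strand of the gene, for both induced hormones and for Fgfbp1, the member that fell most. Capitals mark matches to the letters searched.
Fgf21: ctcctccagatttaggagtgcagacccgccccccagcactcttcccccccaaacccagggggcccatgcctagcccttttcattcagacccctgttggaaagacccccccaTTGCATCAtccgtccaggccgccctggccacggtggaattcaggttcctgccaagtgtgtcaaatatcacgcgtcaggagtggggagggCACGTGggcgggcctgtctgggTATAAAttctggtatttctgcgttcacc
Gdf15: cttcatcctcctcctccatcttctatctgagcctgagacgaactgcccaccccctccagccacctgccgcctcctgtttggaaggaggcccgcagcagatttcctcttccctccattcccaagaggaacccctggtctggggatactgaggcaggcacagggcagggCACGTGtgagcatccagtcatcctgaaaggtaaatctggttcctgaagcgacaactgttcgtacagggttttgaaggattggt
Fgfbp1: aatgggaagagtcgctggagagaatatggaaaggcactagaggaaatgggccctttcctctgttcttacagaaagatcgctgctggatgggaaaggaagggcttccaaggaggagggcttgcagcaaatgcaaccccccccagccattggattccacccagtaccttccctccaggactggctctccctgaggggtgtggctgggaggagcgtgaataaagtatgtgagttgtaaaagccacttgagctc

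The Fgf21 stretch is chr7:45615491-45615740 on the minus strand, the Gdf15 stretch chr8:70632096-70632345 on the minus strand and the Fgfbp1 stretch chr5:43981800-43982049 on the minus strand. Letters were searched on both strands: the C/EBP-ATF element TGATGNAA, the cyclic AMP element TGACGTCA, the endoplasmic reticulum stress element ERSE, the oestrogen-related receptor half-site AAGGTCA, the E-box CACGTG and the TATA letters TATAAA. None of these matches overlapped another in the stretches shown. Fgf21 held a C/EBP-ATF match on the reverse strand at positions -139 to -132 from the start, an E-box at -50 to -45 and a TATA match at -28 to -23. It was the 1 window of 8 with the C/EBP-ATF letters, which 3.97% of all 32851 windows of the reference set hold. Gdf15 held an E-box at -83 to -78, and E-boxes stood in 2 of the 8 windows and in 7.15% of all windows. That Gdf15 start site lies 460 bases upstream of the start of the gene model in the deposited table, so the stretch is not directly in front of the counted exons. A further Gdf15 window, whose start is 821 bases upstream of the model, held none of the letters. Fgfbp1 held TATA letters only past its start, at 4 to 9, and such letters are in 13.6% of all windows. None of the 8 windows held the cyclic AMP element (1.79% of all), the endoplasmic reticulum stress element (0.119%) or the half-site (4.72%). These matches describe the letters and no binding was measured.

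Fgf21 (Entrez Gene 56636, chr7:45613890-45615490, minus strand) had no count in any of the 4 control libraries. Knockout replicates 1 to 4 had 694, 787, 430 and 570 counts, or 28.9, 36.0, 17.8 and 22.7 CPM, with a mean of 26.4 CPM. Every knockout library was thus far above every control, and the lowest and highest knockout differed by about the size of the lowest. A count of 0 over the 4 control libraries allows up to 3 counts, or 0.0522 CPM, so Fgf21 was at least 499-fold higher in the knockouts (2481 counts against 0, adjusted p = 5.42e-06 with edgeR). It had the highest fitted fold change of all 14012 genes, although the fitted value for a gene without control counts depends on the small count added to it.

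Gdf15 (Entrez Gene 23886, chr8:70629394-70631635, minus strand) had 1, 0, 1 and 2 counts in control replicates 1 to 4. The knockouts had 1555, 786, 1458 and 1307 counts, or 64.8, 36.0, 60.2 and 52.0 CPM. The ratio of the groups was 771, with a 95% counting interval of 301 to 2831 that covers counting error only (log2 fold change 9.45, SE 0.36, adjusted p = 8.1e-08 with edgeR). By fold change Gdf15 ranked 4 from the top of the table. Knockout replicate 2 had the lowest Gdf15 and the highest Fgf21 of the 4. Per length, on the deposited FPKM scale, Gdf15 over Fgf21 was 1.96, 0.873, 2.96 and 2.003 in knockout replicates 1 to 4, so the order of both hormones was not the same in all mice.

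The genes whose profile over the 8 libraries lay closest to that of Fgf21 were Fibcd1, Sln and Trib3. Closeness was the root mean square difference of centred log2 CPM among 13390 genes, and the values were 0.510, 0.535 and 0.656. For Gdf15 they were Fibcd1 (0.568), Acox2 (0.731) and Trib3 (0.735). Trib3, a pseudokinase gene and known ATF4 target, went from 1.16 ± 0.533 to 149 ± 9.73 CPM. Sln, which encodes the calcium pump regulator sarcolipin, went from 0.498 ± 0.144 to 79.6 ± 29.4 CPM. Acox2, a peroxisomal acyl-CoA oxidase gene, went from 0.163 ± 0.193 to 40.7 ± 10.3 CPM, and Fibcd1, which encodes a chitin-binding membrane protein, from no count in the controls to 17.1 ± 3.09 CPM. The likeness rests on the step between the groups, which all these genes share.

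Fndc5, Metrnl and Vegfb have been tied to PGC-1alpha, the coactivator of mitochondrial gene programmes that is encoded by Ppargc1a. FNDC5 is the membrane precursor of irisin. Fndc5 (Entrez Gene 384061, chr4:129137060-129144593, plus strand) measured 70.9, 113, 80.7 and 89.4 CPM in control replicates 1 to 4 and 24.5, 25.7, 25.1 and 36.5 CPM in the knockouts. All knockouts lay below all controls, and knockout replicate 4 was the highest of its group. The means were 88.4 ± 17.8 and 27.96 ± 5.74 CPM, a 3.16-fold lower level (log2 fold change -1.66, SE 0.17, adjusted p = 1.92e-05 with edgeR).

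Vegfb encodes a growth factor of the VEGF family that binds FLT1 and neuropilin-1. Vegfb (Entrez Gene 22340, chr19:6982472-6987651, minus strand) had 102, 117, 107 and 95.1 CPM in control mice and 72.6, 64.3, 68.9 and 68.9 CPM in knockout mice. It was the tightest member, with SDs of 8.60% and 4.90% of the means. With TMM it fell by 0.62 on the log2 scale (SE 0.077, adjusted p = 7.72e-05 with edgeR). With RLE and upper-quartile scaling the values were -0.66 and -0.58 (adjusted p = 5.42e-05 and 7.39e-05 with edgeR), also called lower. With library totals alone the value was 0.052 (adjusted p = 0.531, the highest of a range from 4.86e-13 over the alternatives). Relative to the median of all genes, the value was -0.68 both with TMM and with library totals. A change of scaling shifts all genes by nearly the same amount, so this agreement is given in advance and is no check of the fall.

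Metrnl encodes meteorin-like, a secreted factor described in muscle, fat and immune cells. Metrnl (Entrez Gene 210029, chr11:121702427-121717389, plus strand) had 4.60, 4.12, 3.86 and 6.74 CPM in control mice and 4.04, 6.82, 4.09 and 6.48 CPM in knockout mice. The ranges overlapped almost fully, and no difference was called (log2 fold change 0.14, SE 0.24, adjusted p = 0.627 with edgeR). With library totals alone the value was 0.81 (adjusted p = 0.0226 with edgeR, the lowest of a range up to 0.978 over the alternatives), also not called.

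Ostn encodes osteocrin or musclin, which binds the natriuretic peptide clearance receptor NPR3. Ostn (Entrez Gene 239790, chr16:27307641-27351209, plus strand) had 4.04, 3.80, 3.58 and 2.65 CPM in control mice and 13.3, 9.07, 19.1 and 12.2 CPM in knockout mice. Every knockout was higher than every control, at 3.82-fold by the means (log2 fold change 1.94, SE 0.23, adjusted p = 6.17e-05 with edgeR). In the GENCODE M21 annotation the antisense gene Gm32312 overlaps exons of Ostn, and since the counting is not stated to use strand, reads of both cannot be told apart.

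Angptl4 encodes a secreted inhibitor of lipoprotein lipase that fatty acids induce through PPAR receptors, in muscle and in fat. Angptl4 (Entrez Gene 57875, chr17:33774900-33781575, minus strand) had 32.5, 25.6, 19.2 and 24.3 CPM in control mice and 43.0, 6.82, 12.4 and 12.4 CPM in knockout mice. Knockout replicate 1 had the highest level of all 8 libraries, while the other 3 knockouts lay below every control. Over all libraries the difference did not pass (log2 fold change -0.44, SE 0.48, adjusted p = 0.446 with edgeR). Without knockout replicate 1 it was -1.27 with an adjusted p of 0.00191, the lowest of a range of 0.00191 to 0.713 over the alternatives. Knockout replicate 1 also had the most Adipoq (adiponectin, a fat cell hormone), at 150 CPM against 32.1 to 90.0 CPM in the other knockouts and 3.58 to 91.7 CPM in the controls. The summed level of 8 fat cell markers was 831 to 4996 CPM in control mice and 1202 to 3738 CPM in knockout mice, with 0 of the 8 called by edgeR or DESeq2 (1 higher at an unadjusted p under 0.05 with edgeR) and none at 0. Control replicate 4 had the highest sum, of which Car3, also a gene of slow muscle fibres, made up 3533 CPM, while 6 of the 8 markers (Adipoq, Plin1, Cidec, Cfd, Retn and Fabp4) were highest in knockout replicate 1. Lep was highest in knockout replicate 4, at 13.3 CPM against 3.54 CPM in knockout replicate 1. Car3 was then set aside after its values were seen, so the order of the sums without it follows from that choice and is no test. Without Car3 the sum was 2591 CPM in knockout replicate 1, 712 to 1553 CPM in the other knockouts and 249 to 1497 CPM in the controls. Knockout replicates 2 and 4 had 85.8 and 90.0 CPM of Adipoq with 6.82 and 12.4 CPM of Angptl4. Control replicates 1 and 3 had 91.7 and 3.58 CPM of Adipoq with 32.5 and 19.2 CPM of Angptl4. With the mean log2 level of all 8 markers, Car3 included, as a covariate, the log2 fold change of Angptl4 was -0.77 (adjusted p = 0.229 with edgeR). The part of fat cells in the Angptl4 values was not tested beyond this.

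Il15 encodes a cytokine that supports natural killer cells and memory T cells and is also expressed in muscle. Il15 (Entrez Gene 16168, chr8:82331624-82402586, minus strand) had 4.04, 3.34, 4.80 and 3.47 CPM in control mice and 3.92, 3.297, 3.63 and 3.10 CPM in knockout mice. The groups overlapped, and the value was -0.16 (SE 0.16, adjusted p = 0.405 with edgeR) with TMM but 0.51 (adjusted p = 0.00866, the lowest of a range up to 0.822 over the alternatives) with library totals alone. Relative to the median of all genes, it was -0.23 under both scalings, which the near-constant shift of all genes between scalings gives in advance.

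Apln encodes apelin, a peptide made by muscle and by endothelial cells that acts on the receptor APLNR. Apln (Entrez Gene 30878, chrX:48025146-48034852, minus strand) had 1.70, 5.63, 3.36 and 5.29 CPM in control mice and 1.46, 0.778, 1.07 and 1.63 CPM in knockout mice. All knockouts lay below all controls, but knockout replicate 4 and control replicate 1 were close. The means were 3.996 ± 1.83 and 1.24 ± 0.383 CPM (log2 fold change -1.70, SE 0.37, adjusted p = 0.00273 with edgeR). Without control replicate 2 the adjusted p was 0.0103 at -1.49, and with library totals alone it was 0.0323 at -1.05, the highest of a range of 1.64e-05 to 0.0323 over the alternatives. The summed level of 8 endothelial markers moved with it, from 324 to 482 CPM in the controls down to 246 to 274 CPM in the knockouts (two-sided exact permutation test, p = 0.0286, which is the lowest possible with 4 libraries a group, and 0.0514 after adjustment over 9 marker lists). The same test gave the same values for the muscle fibre, fibro-adipogenic and smooth muscle sums, which were also lower. It did so too for the satellite cell sum, which was higher. Of the endothelial markers 6 of 8 were called lower, against 21.1% of all genes, and none was at 0. Among those called were Pecam1 and Cdh5, which mark the junctions of the vessel wall. With library totals the endothelial difference was 0.0051 on the log2 scale. In bulk tissue, fewer cells of a type and less RNA per cell cannot be told apart, and the part of endothelial cells in the Apln values was not tested.

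Fgfbp1 encodes a carrier that releases fibroblast growth factors from the matrix and is known to preserve neuromuscular junctions. Fgfbp1 (Entrez Gene 14181, chr5:43978858-43981799, minus strand) had 119, 152, 126 and 60 counts in the controls, or 9.61, 9.95, 9.02 and 3.78 CPM. The knockouts had 2, 4, 3 and 4 counts, or 0.0834, 0.183, 0.124 and 0.159 CPM. Control replicate 4 stood below the other controls but was still far above every knockout. The level was 58.2-fold lower in the knockouts, with a counting interval of 33.7 to 110 (log2 fold change -5.82, SE 0.41, adjusted p = 1.94e-06 with edgeR). By fold change it ranked 6 from the bottom of the 14012 genes.

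**Figure D2:**
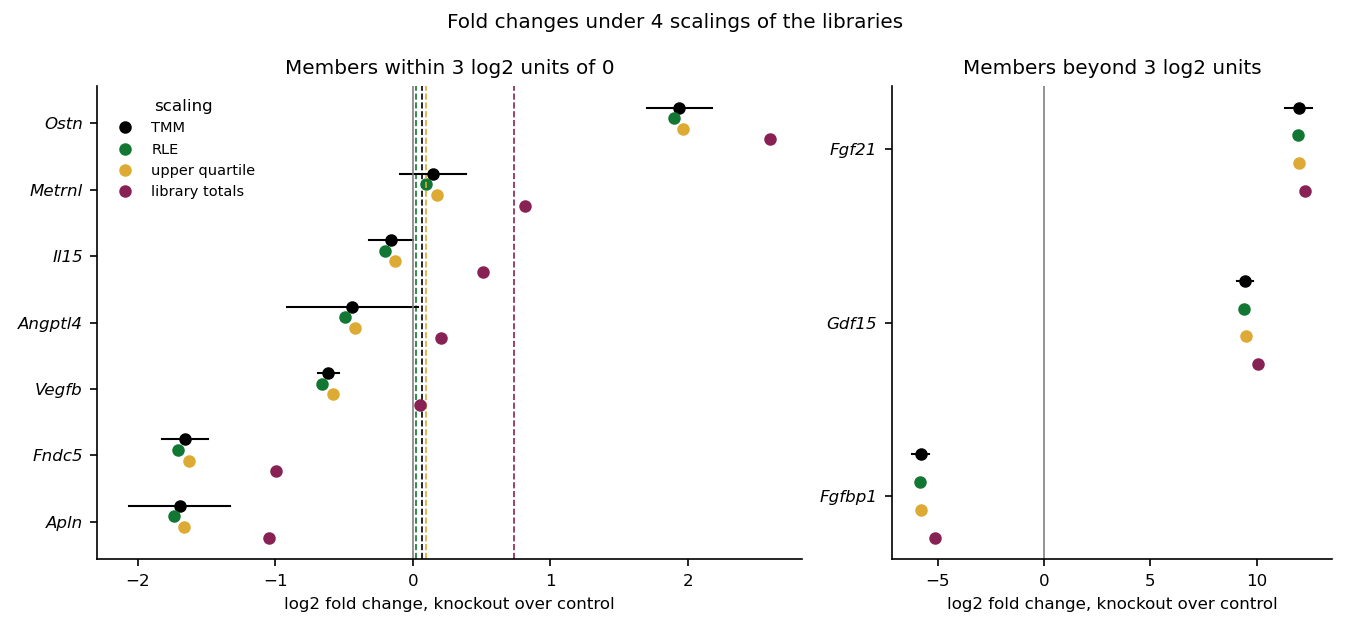
Log2 fold change of knockout over control for each member under 4 scalings of the libraries (x axis), with members within 3 log2 units of 0 on the left and those beyond on the right. Horizontal bars are the SE of the TMM value, and dashed lines mark the median of all genes under each scaling. Vegfb, Angptl4 and Il15 lie below 0 with TMM and above 0 with library totals alone, and the other 7 keep their sign.

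Levels of different genes were compared per length, as deposited FPKM. In the controls Vegfb led with 82.9 ± 7.20 FPKM, followed by Fndc5 with 33.0 ± 6.70 and Angptl4 with 13.5 ± 2.96, each apart from the next. From Fgfbp1 (6.55 ± 2.35) over Il15 (3.07 ± 0.513), Ostn (2.80 ± 0.491) and Metrnl (1.98 ± 0.534) to Apln (1.28 ± 0.587), neighbours overlapped in their ranges, and Gdf15 (0.0648 ± 0.0485) and Fgf21 (0) were last. In the knockouts Vegfb (52.5 ± 2.67) and Gdf15 (48.2 ± 11.6) overlapped at the top, and Gdf15 overlapped with Fgf21 (27.2 ± 7.87). Ostn, Fndc5 and Angptl4 followed at 10.4 ± 3.42, 10.1 ± 2.05 and 9.55 ± 8.32 FPKM with overlapping ranges, then Il15 (2.66 ± 0.282) and Metrnl (2.12 ± 0.580), which overlapped. Apln (0.384 ± 0.117) and Fgfbp1 (0.108 ± 0.0337) closed the order.

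Summed over the 10 members, the FPKM of the groups overlapped (145 ± 13.8 in controls and 163 ± 18.7 in knockouts), but the make-up did not. Fgf21 and Gdf15 together held 0.0471% ± 0.0361 of the sum in the controls and 46.2% ± 1.61 in the knockouts. Fndc5 and Vegfb held 79.8% ± 2.62 and 38.6% ± 3.51. Although the ratio of Gdf15 to Fgf21 varied among the knockouts, their joint share stayed between 44.7% and 48.3%. These pairs were chosen for their change, and the shares are parts of 1 sum, so no test is given. A share within a library does not depend on how the library is scaled. These are shares of mRNA, and no secreted protein was measured in these files.

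**Figure D3:**
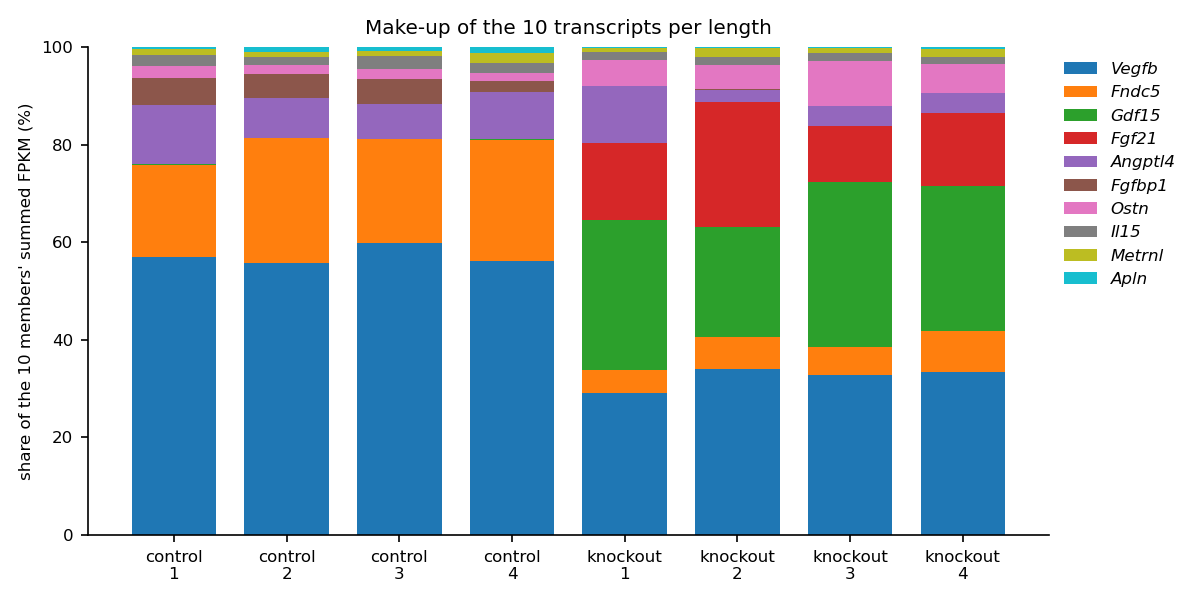
Share of the summed FPKM of the 10 members held by each (y axis, percent) in every library (x axis). Gdf15 (green) and Fgf21 (red) are at most a line in the controls and hold 44.7% to 48.3% of the sum in the knockouts.

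Receptors and direct partners of the members were read from a list of 21 genes, of which 20 were in the table. Gfral, which encodes the hindbrain receptor of GDF15, was not in it. With TMM, 6 partners were lower and 0 higher, and 14 did not pass, with a median log2 fold change of -0.34. Over all genes, 44.7% were called, 23.6% higher and 21.1% lower. At an unadjusted p under 0.05 edgeR had 1 partner higher and 11 lower, and DESeq2 called 1 higher and 8 lower. With library totals alone 5 were higher and 0 lower, so the direction of the smaller changes depends on the scaling.

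Fgfr1, the receptor of FGF21, had 97.2 to 123 CPM in control mice and 61.4 to 68.5 CPM in knockout mice (log2 fold change -0.75, SE 0.088, adjusted p = 5.51e-05 with edgeR), and -0.077 with no call when library totals were used. Klb, its co-receptor beta-Klotho, stayed low, at 0.215 to 2.99 CPM and 0.743 to 5.63 CPM, with no call. Ret, the signalling partner of GFRAL, had 6.38 to 14.4 CPM and 3.29 to 6.32 CPM (-1.24, SE 0.26, adjusted p = 0.00246). The groups did not overlap for Ret, but its lowest control and highest knockout were close. Aplnr, the apelin receptor of vessels, had 9.21 to 20.98 CPM and 4.83 to 10.7 CPM, ranges that overlapped (-1.28, SE 0.30, adjusted p = 0.00411).

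Among the natriuretic peptide receptors, whose clearance member musclin blocks, Npr2 measured 69.99 ± 3.42 and 53.1 ± 2.29 CPM (-0.40, adjusted p = 4.07e-04) and Npr1 28.01 ± 2.39 and 21.5 ± 2.71 CPM (-0.38, adjusted p = 0.0096), while with library totals they were 0.27 and 0.28. Npr3 itself was not called. Itgb5, a subunit of the integrin described as an irisin receptor, measured 97.1 ± 10.6 and 77.7 ± 4.12 CPM (-0.32, adjusted p = 0.00837), and 0.34 with library totals. The calls of Itgb5, Aplnr and Npr1 were each lost in 6 of the 8 fits that left out 1 library, and without control replicate 3 or control replicate 4 the number of partners called was 3. Lpl, the enzyme that ANGPTL4 inhibits, and the IL-15 receptor genes Il15ra, Il2rb and Il2rg did not pass. The VEGF-B receptor genes Flt1 and Nrp1, and Fgf1 and Fgf2, the cargo of FGFBP1, did not pass with edgeR. DESeq2 called Fgf1 higher (adjusted p = 0.00942) and Flt1 lower (adjusted p = 0.00508).

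**Figure D4:**
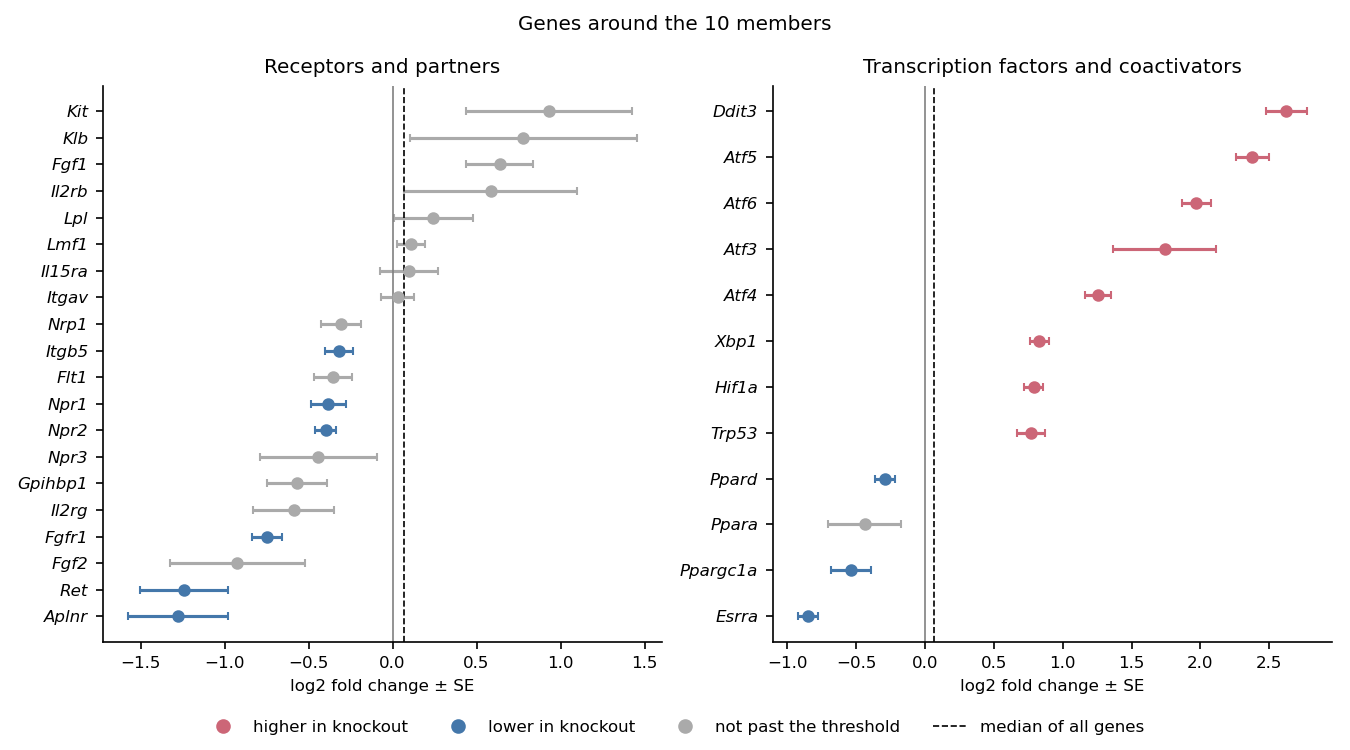
Log2 fold change ± SE of knockout over control with TMM scaling (x axis) for 20 receptors and partners of the members (left) and 12 transcription factors and coactivators (right). Red points passed upwards, blue points downwards and grey points did not pass, and the dashed line is the median of all genes. All called partners lie below 0, and Itgb5, Npr1, Npr2, Ppargc1a and Ppard turn above 0 with library totals alone.

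Among 12 genes of transcription factors and coactivators known to act on the members, 8 rose, 3 fell and 1, Ppara, did not pass. Their median log2 fold change was 0.81. Over all genes, 23.6% were called higher and 21.1% lower. All factors of the integrated stress and unfolded protein responses in the list rose. Ddit3, which encodes CHOP, went from 10.5 to 64.8 CPM (log2 fold change 2.62, SE 0.15, adjusted p = 5.94e-07 with edgeR). Atf5, an activator of mitochondrial stress genes, went from 58.5 to 304 CPM (2.38, SE 0.12), and Atf6, the endoplasmic reticulum sensor, from 41.9 to 164 CPM (1.97, SE 0.11). Atf3, a stress-induced factor, went from 9.64 ± 5.64 to 32.4 ± 7.83 CPM (1.74, SE 0.37, adjusted p = 0.00269). Atf4, which is controlled mainly at translation, went from 173 to 413 CPM (1.26, SE 0.095). Xbp1, a factor of the unfolded protein response, rose by 0.83, Hif1a, the oxygen-sensing factor, by 0.79, and Trp53, the p53 gene, by 0.77.

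Lower with TMM were Esrra, Ppargc1a and Ppard. Esrra, the oestrogen-related receptor that works with PGC-1alpha, went from 142 to 78.9 CPM (-0.85, SE 0.073, adjusted p = 7.02e-06 with edgeR), and was -0.18 with no call under library totals. Ppargc1a had 28.9 to 44.7 CPM in control mice and 23.5 to 32.4 CPM in knockout mice, which overlapped (-0.54, SE 0.14, adjusted p = 0.00905), and was 0.13 with library totals. Ppard, the fatty acid receptor, was -0.29 (SE 0.073, adjusted p = 0.00613) with TMM and 0.37 with library totals. The calls of Ppargc1a and Ppard were lost in 6 and 5 of the 8 fits without 1 library, so that without control replicate 2, control replicate 3 or knockout replicate 4 only 1 of the 12, Esrra, was called lower.

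Other secreted factors of muscle and relatives of the members formed a list of 35 genes, 31 of them in the table. With TMM 4 rose, 13 fell and 14 did not pass (median log2 fold change -0.36), and with library totals alone 13 were higher and 4 lower. Of all genes, 23.6% were called higher and 21.1% lower with TMM. The largest rises were those of Timp1, an inhibitor of matrix proteases (0.857 ± 0.195 to 4.0 ± 0.702 CPM, 2.2, SE 0.22), Fgf7, the keratinocyte growth factor gene (2.19 ± 0.230 to 9.47 ± 1.78 CPM, 2.10, SE 0.17), and Clcf1, a cytokine of the IL-6 family (0.643 ± 0.257 to 1.86 ± 0.336 CPM, 1.497, SE 0.28). The largest falls were those of Gdf11, a relative of Gdf15 in the TGF-beta superfamily (10.5 ± 2.92 to 1.94 ± 0.731 CPM, -2.42, SE 0.29), of Angptl7, a relative of Angptl4 (34.8 ± 24.4 to 7.78 ± 2.03 CPM, -2.16, SE 0.50), and of Inhba, the activin A subunit gene (0.733 ± 0.465 to 0.175 ± 0.123 CPM, -2.04, SE 0.56). The groups overlapped for Angptl7 and Inhba, and their calls were lost in 5 and 6 of the 8 fits without 1 library. Metrn, the closest relative of Metrnl, and Mstn, which encodes myostatin, were looked at after their values were seen. Metrn fell from 32.3 ± 1.498 to 13.0 ± 2.41 CPM (-1.31, adjusted p = 1.38e-05 with edgeR), and Mstn fell from 87.2 ± 14.0 to 30.99 ± 3.27 CPM (-1.49, adjusted p = 5.83e-06).

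Markers of the cells that a QF sample holds were read beside the members. Muscle fibre genes were present in all libraries, as the tissue label says, with a sum of 8 markers of 117150 to 144670 CPM in control mice and 49798 to 63156 CPM in knockout mice. Of these 7 of 8 fell, and Des, which encodes desmin, rose. Satellite cell markers ran from 32.9 to 36.4 CPM and from 45.0 to 64.9 CPM, with 3 of 5 higher and 1 lower, macrophage markers from 69.0 to 179 CPM and from 156 to 285 CPM, with 1 of 8 higher by edgeR and 4 by DESeq2, and fibro-adipogenic markers from 1759 to 2599 CPM and from 999 to 1210 CPM, with 5 of 8 lower. Smooth muscle markers ran from 380 to 617 CPM and from 319 to 355 CPM, with 3 of 6 lower, and Schwann cell markers overlapped. Of 6 lymphocyte markers 1 was in the table. Beside these counts, edgeR called 23.6% of all genes higher and 21.1% lower. The part of the cell types named here in the members' values was not tested.

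**Figure D5:**
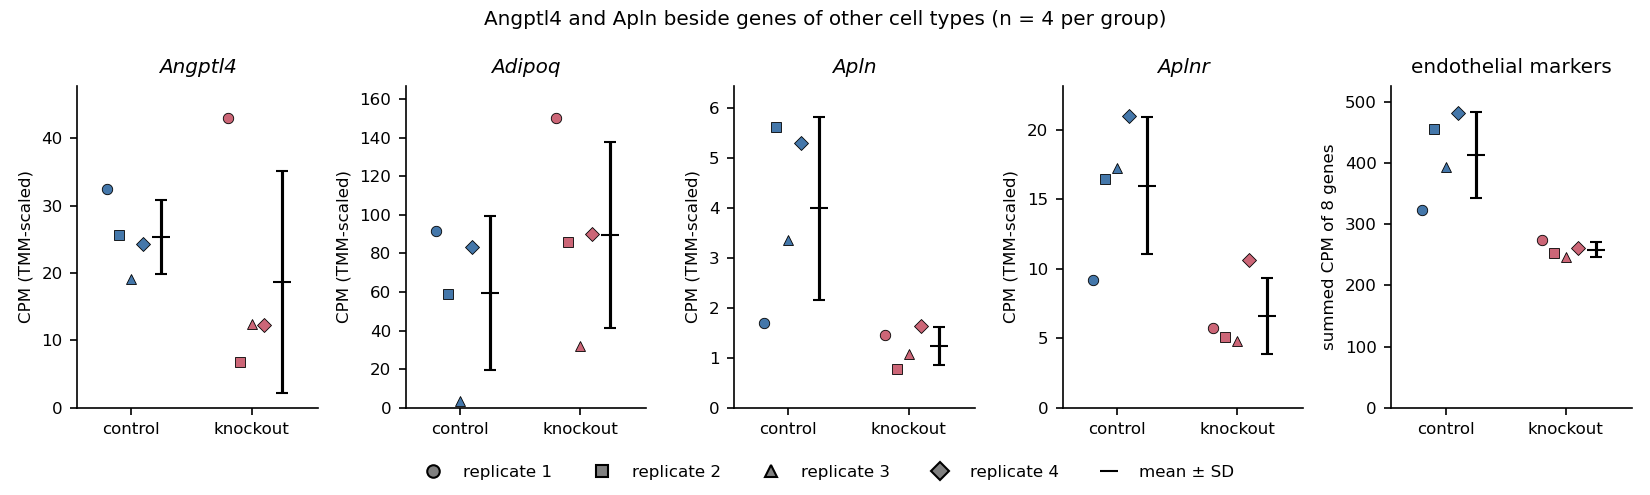
CPM in every library (y axes, from 0) of Angptl4 and Adipoq, and of Apln, Aplnr and the sum of 8 endothelial markers, with control libraries in blue, knockout libraries in red and bars for the mean ± SD of 4. Knockout replicate 1 (circle) is highest for both Angptl4 and Adipoq, and the endothelial sum is lower in all knockouts with TMM scaling but not with library totals alone. Adipoq belongs to the 8 fat cell markers, whose sum, not drawn, was highest in control replicate 4.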

How the data were processed

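RNA of QF muscle from 4 knockout and 4 control mice, grouped by their labels, was sequenced as polyA RNA in 1 library per mouse. The authors' methods name a directional NEBNext kit, read pairs, trimming with cutadapt, STAR 2.5.4b on GRCm38 and counting on exons with Rsubread, without duplicate, multimapping or poorly mapped reads and without genes of low total. The labels name TRIzol and the methods a column kit for the extraction. The use of strand and the annotation release are not given in the sources used here. The deposited table, made by the authors, holds raw counts per gene and FPKM values, which equal the counts over the deposited exon width and a library size of the authors' own. Its 6 columns of the authors' comparison (DESeq2 1.32.0) were not used.

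Counts of all 14012 genes were fitted with edgeR 4.0.16 (glmQLFit, glmQLFTest, TMM) in R 4.3.3, with the label as the only term, Benjamini-Hochberg adjustment and a threshold of 0.01. SEs were derived from the fold change and its F value. Log2 CPM used a prior count of 2. A count of 0 was taken to allow 3 counts at 95%. Marker sums were tested over all 70 ways to split the 8 libraries evenly (exact permutation test). Alternatives were RLE, upper-quartile and library-total scaling, filterByExpr, DESeq2 1.42.0, a threshold of 0.05, a prior count of 2, the replicate number as a block, fat cell markers as a covariate, FPKM levels, mean log2 levels of markers and each library left out in turn. The procedure was tested on simulated data, with the control make-up in both groups and changes in both directions in a small part of the genes. Such data hold no shift in make-up like the one seen here, so the choice of scaling was not tested by them.

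The members and gene lists were chosen with earlier results of these data known. All 10 members were named, every partner and regulator past the threshold, the 3 largest rises and falls of the other secreted factors, and the 3 genes closest in profile to Fgf21 and Gdf15 among genes with a mean count of at least 10. Genes outside this rule are marked as looked at afterwards. Counting intervals cover counting error only.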

Additional observations from a re-analysis of the deposited data

Results flagged for a closer look

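Among the 10 members, 19 groups of 4 libraries were checked for a library far from the rest, and chance marks about 1 in 20 such groups. Marked were 3 values. Fndc5 in knockout replicate 4 was 36.5 CPM, with the nearest other knockout at 25.7 CPM. Angptl4 in knockout replicate 1 was 43.0 CPM, with the nearest at 12.4 CPM, and without this library Angptl4 passed the threshold downwards. Fgfbp1 in control replicate 4 was 3.78 CPM, with the nearest control at 9.02 CPM.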

How the results depend on the processing

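Fgf21, Gdf15, Fndc5, Ostn and Fgfbp1 kept their direction and their call under all 17 alternatives. With library totals alone, 2 members were lower, 5 partners higher and 0 lower, 0 regulators lower, and 13 other secreted genes higher and 4 lower, while Angptl4 turned to 0.20, Il15 to 0.51, Vegfb to 0.052, Itgb5 to 0.34, Npr1 to 0.28, Npr2 to 0.27, Ppargc1a to 0.13, Ppard to 0.37, and the endothelial and smooth muscle sums to 0.0051 and 0.038 on the log2 scale. This scaling shifts the median of all genes from 0.065 to 0.73. DESeq2 called 1 partner higher. The filter filterByExpr left Inhba out, so it has no value there. At a threshold of 0.05, 10 partners were called, 1 of them higher, and 7 other secreted genes were higher. With the fat cell covariate 1 regulator was lower and Metrnl turned to -0.013. The cause of these changes was not tested.

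Leaving out each library in turn gave 6 to 8 members called, 3 to 8 partners (0 to 1 higher and 3 to 8 lower) and 1 to 2 regulators lower, and Metrnl ran from -0.0096 to 0.35. The schwann marker sum, which was not called, ran from -0.014 upwards. With the replicate number as a block 6123 genes were called against 6265, and the same 7 members were called. The sample titles do not say that equal numbers pair the mice, and the numbers were not taken to do so. The deviations of same-numbered libraries correlated at 0.1181, 0.00314, 0.4222 and 0.1382 for numbers 1 to 4. Libraries numbered 1, 3 and 4 matched best with their own number and those numbered 2 did not. Whether same-numbered libraries share a factor was not tested further. The block moved no other count of calls by over 1.5 times. At this depth Fgf21 and Gdf15 were counted 0 to 2 times in a control library, so the fold of Fgf21 is a bound and that of Gdf15 has a wide counting interval.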
